A study of Mus musculus with 136 samples.

Results

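The 8 Sox genes described here, *Sox1*, *Sox4*, *Sox8*, *Sox9*, *Sox10*, *Sox11*, *Sox14* and *Sox21*, were taken from a list of neural and neural crest Sox genes, out of 21887 protein-coding genes placed on the mm10 genome. For each gene, a window was set from 2500 bp before to 2500 bp after the gene body, and all peaks of 10 deposited lists that overlapped it by at least 1 bp were collected. Mouse embryonic stem cells (ESCs; line E14JU, of 129/Ola origin, grown in serum with leukaemia inhibitory factor) were profiled by chromatin immunoprecipitation and sequencing (ChIP-seq). MCM2-2A cells, clones 439 and 442, carry mutations in the part of MCM2 that binds histones, a subunit of the replicative helicase, and hand parental histones unevenly to the sister strands, while clone 410 is wild type (WT). Each line is a single clone, so a difference between clones cannot be told apart from a difference between genotypes, also where both MCM2-2A clones share it, since WT is 1 clone. SUZ12, one of the proteins without which Polycomb repressive complex 2 (PRC2) does not work, had 1 list for each of the 3 clones, from 3 replicates each. Marks were listed for WT clone 410 alone: H3K27me3, H3K4me3, H3K27ac and H3K9me3 in an original experiment with 2 replicates each, and H3K27me3, H3K4me3 and H3K9me3 in a rescue experiment with 3 replicates each.

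The authors had combined the replicates of each list, so each value is given once per list with no spread between replicates, no test was made, and the read depth is unknown. Fold enrichment is the height of a peak over its local background as the authors' peak caller gave it. It was not scaled here by the Drosophila chromatin added to the samples as a spike-in. A ratio between clones is therefore not a measure of the amount of SUZ12 bound. A gene missing from a filtered list is described as not listed, since the lists do not show that the protein or mark was absent. Whether the lists are complete was not tested, which bears on each count of listed members and on any gap in a list. The labelled cell type was checked by its markers in WT: all 10 pluripotency markers had H3K4me3 and H3K27ac and 2 of 10 had WT SUZ12 (*Esrrb* and *Klf4*), whereas of 8 fibroblast markers 6 had H3K4me3, 2 had H3K27ac and 4 had WT SUZ12. Of all genes, 78.1% had H3K4me3, 66.1% had H3K27ac and 22.5% had WT SUZ12. The MCM2-2A clones have no lists of marks and were not checked in this way.

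On mm10, *Sox1* lies at chr8:12395519-12399555 (plus strand), *Sox14* at chr9:99874106-99876170 and *Sox21* at chr14:118233233-118237030 (both minus strand). *Sox4* lies at chr13:28948919-28953699, *Sox11* at chr12:27334268-27342718 and *Sox8* at chr17:25565893-25570686 (all minus strand), *Sox9* at chr11:112782210-112787757 and *Sox10* at chr15:79154913-79164490. The windows hold the whole gene, its exons, introns and untranslated ends, and run from 7065 bp at *Sox14* to 14578 bp at *Sox10*.

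Sox proteins bind DNA through a high mobility group box and are grouped by its sequence. *Sox1* (SoxB1) marks the neural plate and keeps neural progenitors from differentiating, and *Sox14* and *Sox21* (SoxB2) encode repressors that act in interneurons and in the exit from the progenitor state. *Sox4* and *Sox11* (SoxC) act in committed neuronal precursors, and *Sox8*, *Sox9* and *Sox10* (SoxE) in neural crest and glia, *Sox9* also in cartilage and testis. In ESCs such lineage genes are mostly silent, and many carry PRC2 with its product H3K27me3 together with H3K4me3, a promoter mark of transcription, a state called bivalent. H3K27ac marks active promoters and enhancers and occupies the same residue as H3K27me3, and H3K9me3 marks heterochromatin and repeats.

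PRC2 in mammals gathers at CpG-rich promoters, so the promoters of the genes with the clearest contrasts are shown here, from RefSeq (GRCm38.p6), 250 bp before to 50 bp after the start site, 5′ to 3′ on the gene's strand, with every CG in capitals. *Sox1* held the most CG and its promoter was in the SUZ12 lists of clones 442 and 410 but not 439, *Sox21* had the strongest SUZ12, and *Sox4* and *Sox11* were the members with several H3K27ac peaks.
Sox1, chr8:12395269-12395568, plus strand: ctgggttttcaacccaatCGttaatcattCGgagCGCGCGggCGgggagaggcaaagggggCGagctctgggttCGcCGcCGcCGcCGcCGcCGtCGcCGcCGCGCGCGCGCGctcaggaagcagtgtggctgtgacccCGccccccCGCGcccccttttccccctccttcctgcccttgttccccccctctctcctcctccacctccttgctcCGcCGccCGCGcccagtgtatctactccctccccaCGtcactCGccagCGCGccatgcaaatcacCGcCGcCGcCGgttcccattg
Sox21, chr14:118236981-118237280, minus strand: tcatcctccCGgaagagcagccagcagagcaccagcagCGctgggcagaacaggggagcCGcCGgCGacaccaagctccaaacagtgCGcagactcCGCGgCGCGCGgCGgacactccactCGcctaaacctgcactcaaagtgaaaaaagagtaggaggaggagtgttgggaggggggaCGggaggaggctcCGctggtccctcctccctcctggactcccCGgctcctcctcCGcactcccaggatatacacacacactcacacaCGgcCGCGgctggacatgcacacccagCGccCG
Sox4, chr13:28953650-28953949, minus strand: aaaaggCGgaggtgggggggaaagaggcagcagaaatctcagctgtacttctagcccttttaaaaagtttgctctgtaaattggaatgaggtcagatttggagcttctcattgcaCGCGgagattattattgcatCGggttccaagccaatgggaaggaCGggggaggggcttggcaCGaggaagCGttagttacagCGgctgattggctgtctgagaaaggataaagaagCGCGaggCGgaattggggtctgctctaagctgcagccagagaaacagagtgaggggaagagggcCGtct
Sox11, chr12:27342669-27342968, minus strand: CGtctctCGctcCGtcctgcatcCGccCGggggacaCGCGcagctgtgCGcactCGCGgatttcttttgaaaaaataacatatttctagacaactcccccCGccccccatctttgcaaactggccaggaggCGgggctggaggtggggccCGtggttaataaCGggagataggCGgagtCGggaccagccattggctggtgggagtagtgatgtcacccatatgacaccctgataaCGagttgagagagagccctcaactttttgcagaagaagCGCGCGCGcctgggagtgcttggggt

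RefSeq promoters matched 6 of the 8 genes (*Sox9* and *Sox10* were not matched). CG dinucleotides numbered 37 in *Sox1*, 26 in *Sox14*, 22 in *Sox21*, 21 each in *Sox8* and *Sox11*, and 12 in *Sox4*, beside a median of 23 over the 2638 promoters that SUZ12 peaks touched in all 3 lists and of 13 over all 17492 promoters. The *Sox1* promoter held more CG than 93.1% of all promoters, and *Sox4* held more than 46.7%, so the 6 span a wide range. A CCAAT box (CCAAT on either strand) lay in 4 of the 6 promoters, *Sox1*, *Sox4*, *Sox11* and *Sox14*, and in 39% of all promoters, with 4 matches in *Sox4*. The octamer ATGCAAAT, the letters that POU factors recognise, lay in the *Sox1* promoter 18 bp after the start site and in 1.71% of all promoters. Both motifs were chosen after the sequences had been read, and a match is a description only. The plot of CG counts places the members on the distribution of all promoters.

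**Figure D1:**
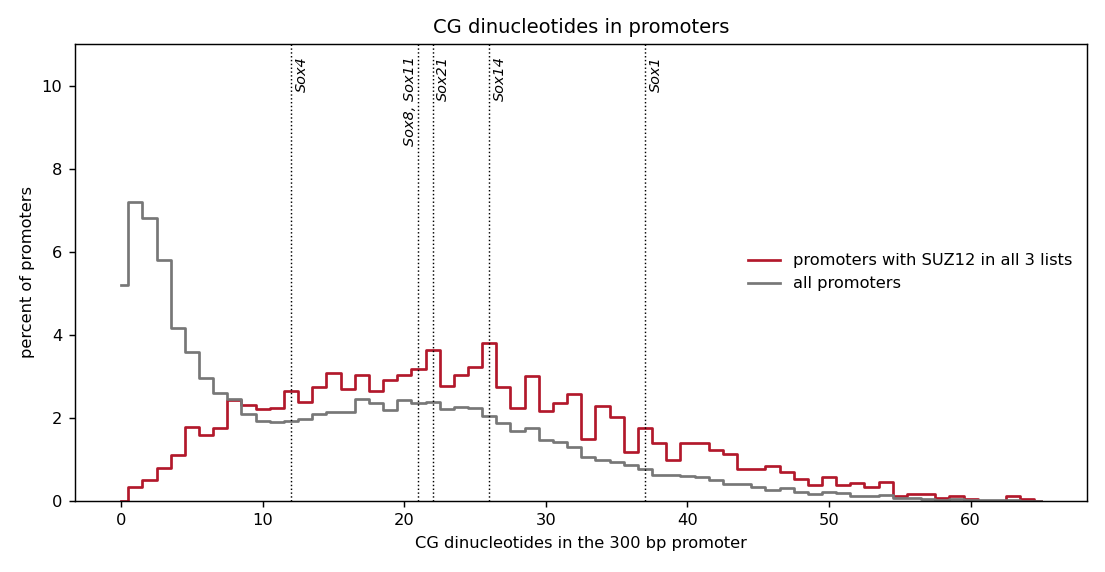
Number of CG dinucleotides (x axis) in the 300 bp promoters of protein-coding genes, as a percent of promoters (y axis), for the 2638 promoters touched by SUZ12 in all 3 lists (red) and all 17492 promoters (grey); dotted lines mark the 6 members with a promoter sequence. Sox4, with 12 CG, lies near the median of all promoters, and Sox1, with 37, in the upper tail.

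SUZ12 lay in the windows of 7 of 8 members in MCM2-2A clone 439, 8 of 8 in MCM2-2A clone 442 and 8 of 8 in WT clone 410, where the shares of all genes were 26.2%, 27.7% and 22.5%. Peaks of all 3 lists were present at 7 members, beside 21.3% of all genes. The exception was *Sox1*, which had SUZ12 in clones 442 and 410 but not 439, a pattern held by 0.621% of all genes. At the 7 others a single SUZ12 peak per list overlapped the window. Among the 5081 genes with windows as long as those of the members (7065 to 14578 bp), the shares were lower, 22.8% in clone 439, 24.1% in clone 442 and 19.6% in WT. No other protein-coding gene body lay inside any of the members' SUZ12 peaks. Noncoding genes did share member windows: *Sox1ot*, *Gm46405* and *Gm46406* (*Sox4*), *Cerox1* (*Sox8*), *Gm10863* (*Sox10*), *Gm30855* (*Sox11*) and *Gm4675* (*Sox21*), and peaks there cannot be given to either gene of the pair. The window of *Polr2f*, a subunit of RNA polymerase II, overlapped that of *Sox10*.

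**Figure D2:**
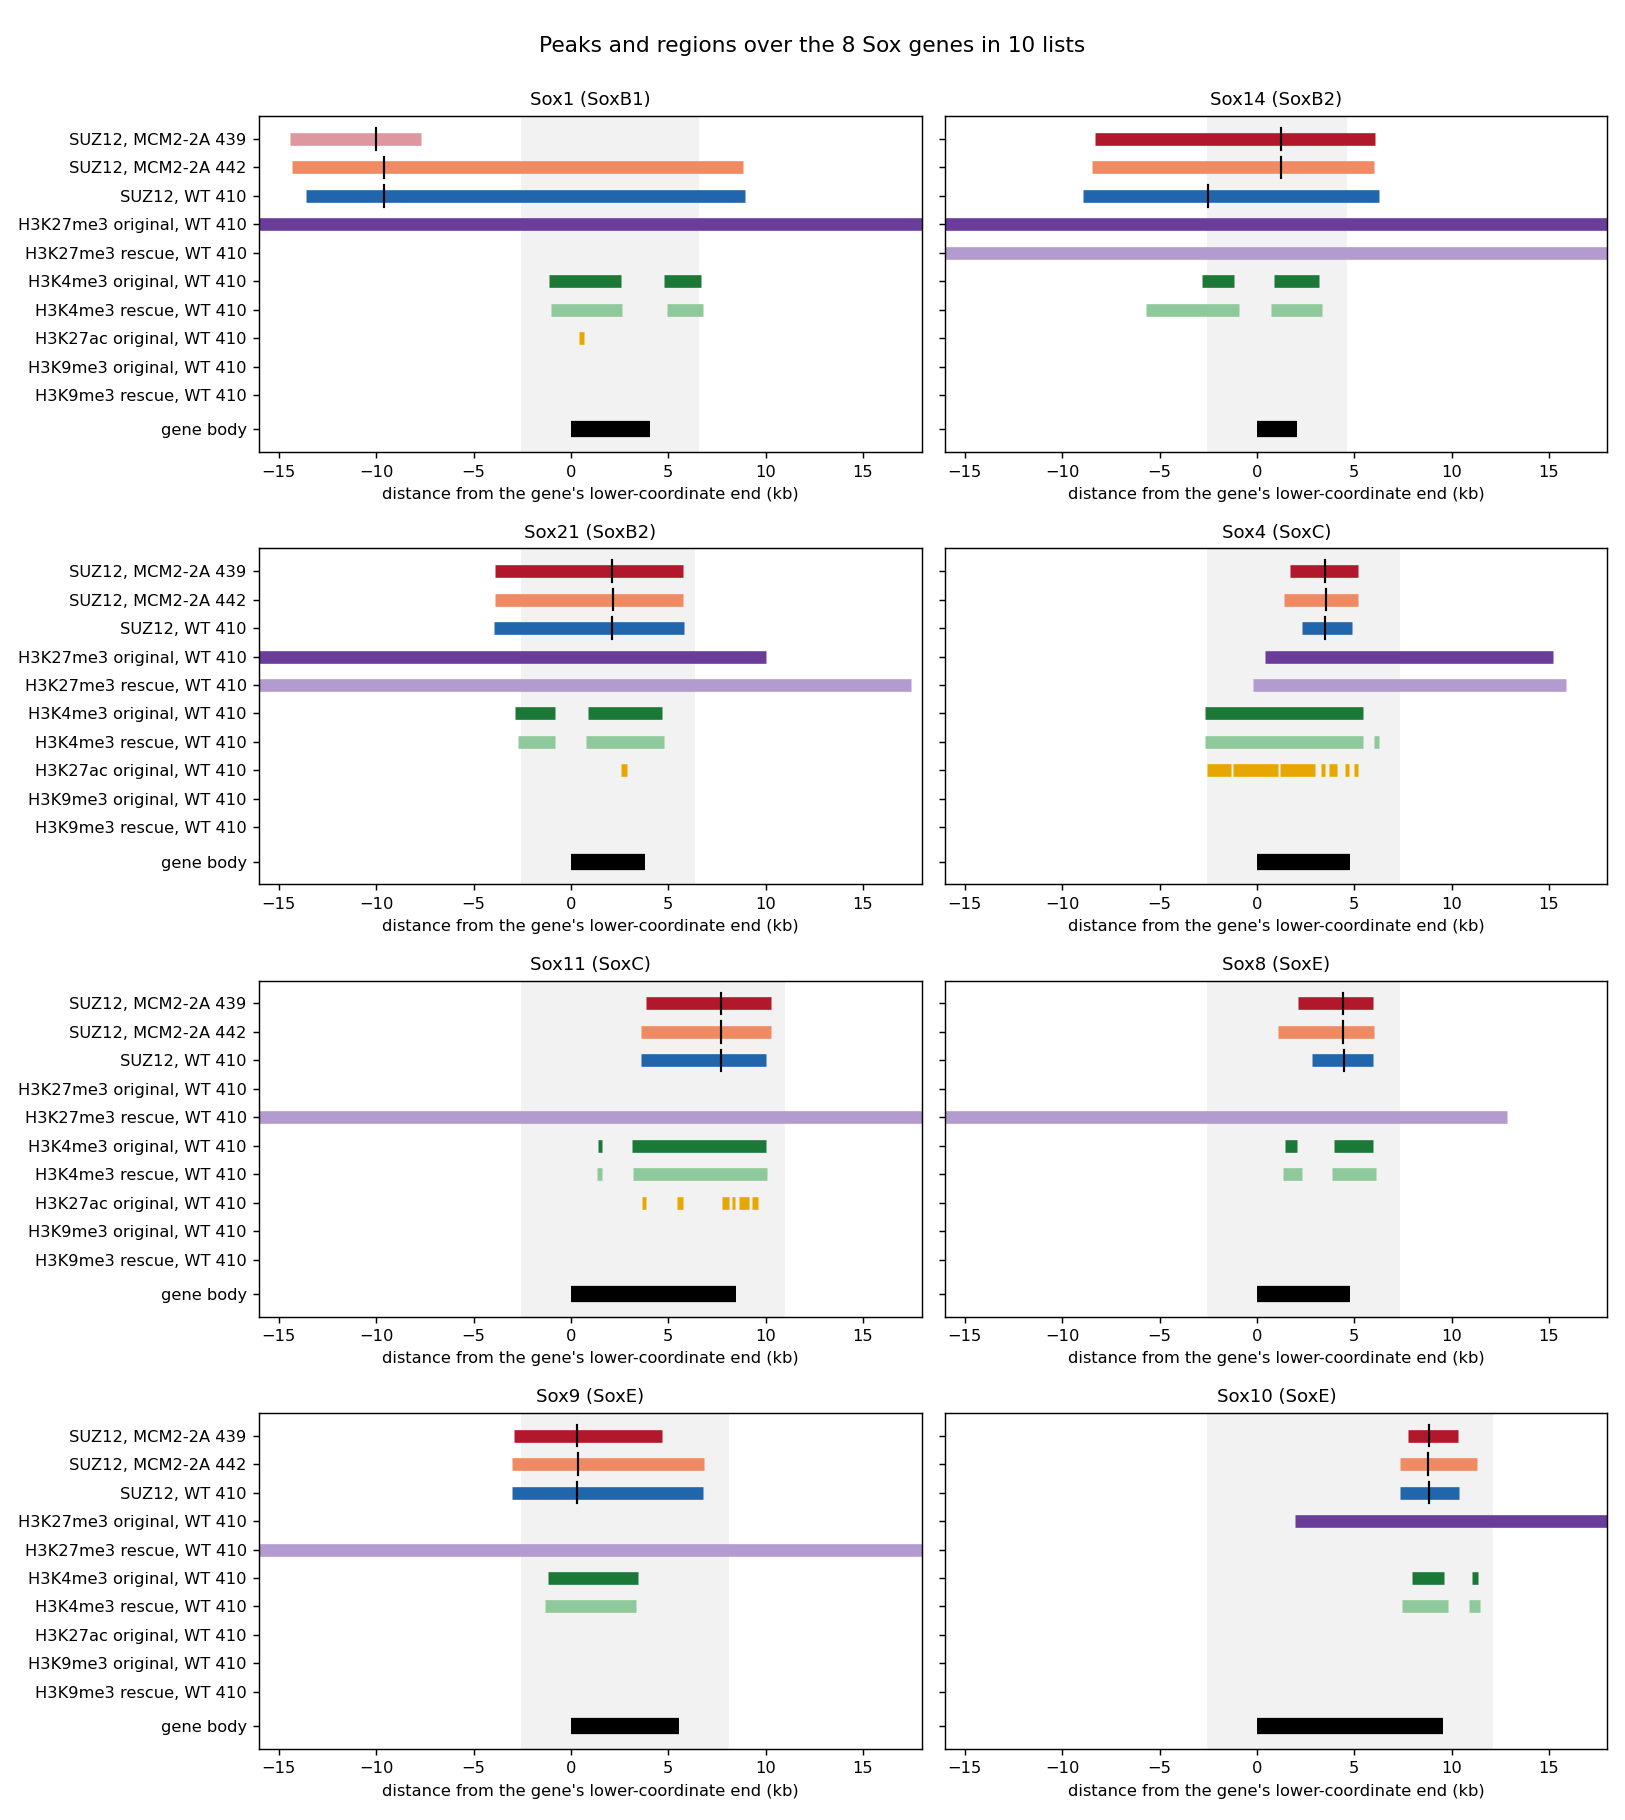
Peaks and regions of the 10 lists (rows) over the 8 members, by distance in kb from the gene's end of lower coordinate (x axis); the grey band is the window, black bars are gene bodies, black ticks are SUZ12 summits, and the pale red bar at Sox1 is a clone 439 peak that lies outside the window. Sox4, Sox8, Sox11, Sox14 and Sox21 are transcribed from right to left and Sox1 from left to right. SUZ12 peaks of the 3 clones cover nearly the same ground at Sox21, Sox11 and Sox14, and the Sox1 gene lies under SUZ12 in clones 442 and 410.

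The SoxB genes had the strongest SUZ12 of the members in WT. *Sox21* had a fold enrichment of 102.1 in clone 439 and 74.5 in clone 442, against 109.4 in WT. Its peak ranked 41 of 7571 in clone 439 and 77 of 7840 in clone 442, against 46 of 6298 in WT. Its width barely differed, at 9.67 kb in clone 439, 9.69 kb in clone 442 and 9.72 kb in WT, and the summits of the 3 lists lay within 18 bp of each other. *Sox21* was thus lower than WT in both MCM2-2A clones in fold enrichment, 0.934 times in clone 439 and 0.681 times in clone 442, over nearly the same extent.

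*Sox14* had a fold enrichment of 87.0 in clone 439 and 50.5 in clone 442, against 88.3 in WT. The ratio to WT was 0.985 in clone 439 and 0.571 in clone 442, so the highest point was lower in clone 442 and hardly so in clone 439. These ratios compare summits at different places, as given below, and the WT height at the MCM2-2A summits is not listed. The peaks spanned 14.3 kb in clone 439, 14.5 kb in clone 442 and 15.2 kb in WT and covered the whole window in each list. The summits of both MCM2-2A clones lay 6 bp apart, 817 and 811 bp inside the gene from the start site. By contrast, the WT summit lay at 4566 bp, past the end of the gene and just outside the window. The WT summit was 3 bp from the summit of an H3K4me3 peak of the original experiment. At 6 of the 7 members with SUZ12 in every list, the summits of both MCM2-2A clones lay within 100 bp of WT, beside 55.8% of genes, and *Sox14* was the exception. That share is over the 4652 genes with SUZ12 in all 3 lists, of any window length and WT strength. It is thus not matched to the members.

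*Sox1* had a fold enrichment of 54.3 in clone 442, against 86.1 in WT, a ratio of 0.631. These peaks were 23.2 kb wide in clone 442 and 22.6 kb in WT, ranking 11 and 16 by width within their lists, and covered the whole window. Both are among the widest SUZ12 peaks of the genome. Their summits, 6 bp apart, lay outside the window at -9589 bp in clone 442 and -9595 bp in WT relative to the *Sox1* start site. *Sox1* lies inside the longer noncoding *Sox1ot*, and these summits were 159 bp in clone 442 and 153 bp in WT from the lower-coordinate end of that gene. In clone 439 the list held a peak of 6.74 kb in this place, with a fold enrichment of 67.4 and a summit at -10037 bp, which ended at -7714 bp. Its next peak began at 31788 bp, so the gene and its promoter lay in a gap of the clone 439 list. Clone 439 peaks covered 26.2% of the bases of the WT peak, and clone 442 peaks 99.6%. Of 187 WT peaks at least as strong, 1 had under 50% of its bases in clone 439 peaks, this peak itself. The SUZ12 lists are marked as filtered by reproducibility between replicates, and the part of that filter in the gap was not tested. Counting the peak upstream, fold enrichment at the *Sox1* locus was below WT in both MCM2-2A clones.

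The SoxC genes, *Sox4* and *Sox11*, had weaker SUZ12 in WT and higher values in both MCM2-2A clones. *Sox4* had a fold enrichment of 34.8 in clone 439 and 26.2 in clone 442, against 22.3 in WT, or 1.56 and 1.17 times WT. Its peak covered 3483 bp of the window in clone 439 and 3788 bp in clone 442, against 2603 bp in WT, and this extension, 1.34 and 1.46 times WT, was on both sides of the WT peak. In the promoter printed above, SUZ12 covered all 300 bp in clones 439 and 442 and 176 bp in WT. *Sox11* had a fold enrichment of 38 in clone 439 and 41.7 in clone 442, against 27 in WT, or 1.41 and 1.55 times WT. Its peak kept its extent, with 6437 bp of the window covered in clone 439 and 6705 bp in clone 442, against 6430 bp in WT. The peak of *Sox4* ranked 1432 in clone 439 and 1746 in clone 442, against 2110 in WT, and that of *Sox11* ranked 1282 and 792, against 1734. *Sox4* thus differed in height and width, and *Sox11* in height alone.

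The SoxE genes differed from WT in different directions. *Sox10* had a fold enrichment of 48.5 in clone 439 and 37.4 in clone 442, against 29.8 in WT, or 1.63 and 1.26 times WT. Its covered bases, 2563 bp in clone 439 and 3964 bp in clone 442, against 3043 bp in WT, lay on either side of WT. *Sox9* had a fold enrichment of 77.5 in clone 439 and 63.2 in clone 442, against 58.0 in WT, or 1.34 and 1.09 times WT. It covered 7151 bp in clone 439 and 9344 bp in clone 442, against 9297 bp in WT, so the highest peak was also the narrowest. *Sox8* had a fold enrichment of 20.7 in clone 439 and 30.7 in clone 442, against 31.4 in WT, or 0.658 and 0.976 times WT. Its covered bases went the other way, 3883 bp in clone 439 and 4919 bp in clone 442, against 3120 bp in WT, or 1.24 and 1.58 times WT. By rank within the list, *Sox9* stood at 234 in clone 439 and 186 in clone 442, against 565 in WT, *Sox10* at 866 and 1002, against 1546, and *Sox8* at 2530 and 1393, against 1454. The clone 442 value at *Sox8* was close to WT in height, and by -log10 q in place of fold enrichment it was above WT, at 1.23 times. *Sox9* in clone 442 turned likewise, to 0.909 times WT by -log10 q.

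**Figure D3:**
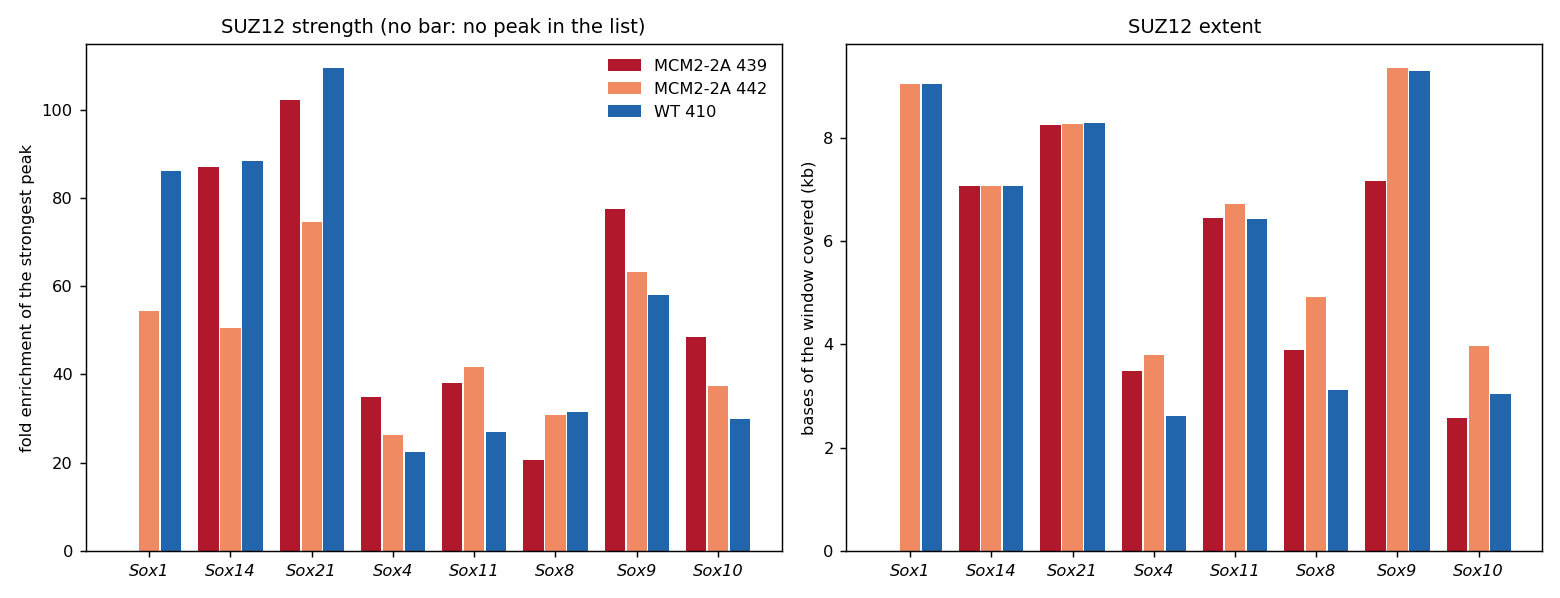
Fold enrichment of the strongest SUZ12 peak overlapping each window (left) and kb of the window that SUZ12 peaks covered (right), for MCM2-2A clones 439 and 442 and WT clone 410, 1 value per list and no error bars because replicates were combined. Sox4, Sox11, Sox9 and Sox10 are above WT in both MCM2-2A clones in the left plot, Sox21, Sox14 and Sox8 below, and Sox1 has no bar in clone 439.

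By the rule used for a change in extent, at least 1.5 times more or fewer covered bases than WT in both MCM2-2A clones, 0 of the 7 members with SUZ12 in every list were called in either direction, beside 7.74% of 4652 genes for more and 0.279% for fewer. At 3 of the 7 the WT peak left no room for such an extension, since filling the window would give at most 1.14 times WT at *Sox9*, 1.06 at *Sox21* and 1 at *Sox14*. Fold enrichment was above WT in both MCM2-2A clones at 4 of 7 members (*Sox4*, *Sox9*, *Sox10* and *Sox11*), beside 43.6% of the 4652 genes, and below WT in both at 3 of 7 (*Sox8*, *Sox14* and *Sox21*), beside 26.1%. By -log10 q these were 3 (*Sox4*, *Sox10* and *Sox11*) and 2 (*Sox14* and *Sox21*). At *Sox14* the WT and MCM2-2A summits lay at different places, so its direction is that of the peak's highest point and not of 1 site. The medians over the 7 members were 1.34 times WT in clone 439 and 1.09 in clone 442, and over all 4652 genes 1.12 and 1.01. Among all genes, direction differed with WT strength. With each list scaled by its median over 5366 sites that all 3 share (18.8 in clone 439 and 17.3 in clone 442, against 16.2 in WT), every one of the 7 members stayed on its side of WT in both clones, with *Sox9* at 1.15 and 1.02 nearest to WT among those above. Where WT fold enrichment was between 19.0 and 38.7, which holds *Sox4*, *Sox8*, *Sox10* and *Sox11*, 40.7% of genes were above WT in both clones and 23.5% below. Where it was over 38.7, which holds *Sox9*, *Sox14* and *Sox21*, 11.9% were above and 58.6% below. *Sox9* was thus with the smaller share of genes of its strength, and *Sox14* and *Sox21* with the larger. The WT value served both to divide the genes and as the denominator of the ratio, which by itself favours high ratios at low WT values, and this division was chosen after the data had been seen.

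**Figure D4:**
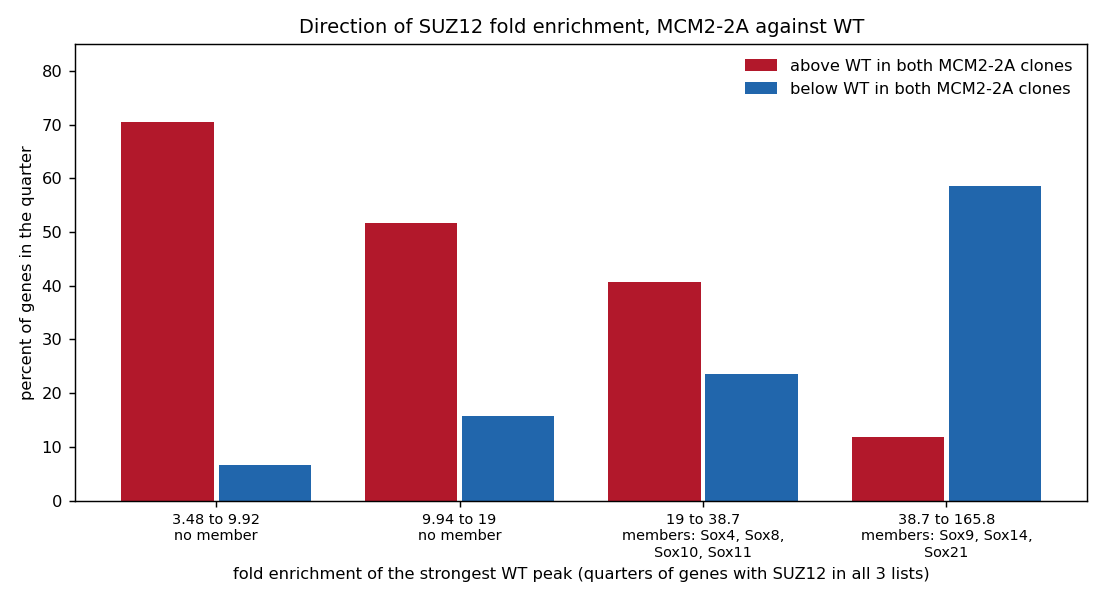
Percent of genes (y axis) whose strongest SUZ12 peak had a fold enrichment above WT (red) or below WT (blue) in both MCM2-2A clones, for 4 equal groups of the 4652 genes with SUZ12 in all 3 lists, ordered by WT fold enrichment (x axis). The share above WT is 70.4% in the weakest group and 11.9% in the strongest, where Sox9, Sox14 and Sox21 lie.

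H3K4me3 was listed at all 8 members in both WT experiments, beside 78.1% of all genes in the original and 79.4% in the rescue list. Fold enrichment of the strongest peak in the original and the rescue experiment was 98.9 and 69.7 at *Sox4*, 89.8 and 73.1 at *Sox21*, 67.1 and 53.4 at *Sox8*, and 65.4 and 55.5 at *Sox11*. It was 52.5 and 66.4 at *Sox1*. It was lower in both experiments at *Sox9*, with 50 and 38.8, at *Sox14*, with 35.7 and 24.7, and at *Sox10*, with 35.5 and 28.0. The *Sox14* values belong to different peaks. Its peak past the end of the gene had 35.7 in the original and 21.3 in the rescue list. Its peak at the start site had 25.9 and 24.7. *Sox4* and *Sox21* were the highest and *Sox10* and *Sox14* the lowest in both experiments, and *Sox1* was the one member with a higher value in the rescue list. H3K4me3 peaks of the original and rescue list covered 81.5% and 84.4% of the window at *Sox4*, 62.2% and 64.8% at *Sox21*, 60.1% and 58.3% at *Sox1*, 52.6% and 53.2% at *Sox11*, 51.8% and 59.7% at *Sox14*, 43.7% and 44.4% at *Sox9*, 27% and 32.9% at *Sox8*, and 13.2% and 20% at *Sox10*. Members of 1 subgroup did not share a level. Among the members, the widest H3K4me3 peaks of the original list were at *Sox4*, with 8.14 kb over the whole gene, and at *Sox11*, with 6.85 kb. *Sox1*, *Sox14* and *Sox21* had a pair of H3K4me3 peaks, with a second one past the end of the gene, and in all 3 both peaks lay inside WT SUZ12.

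H3K4me3 in WT lay entirely inside SUZ12 at *Sox1*, *Sox9*, *Sox14* and *Sox21* and mostly so at *Sox11* (90.7% of its bases), *Sox10* (84.6%) and *Sox8* (76.3%). At *Sox4* 32.7% of H3K4me3 bases lay inside SUZ12, so the mark reached far past it. *Sox8* shares its start region with the noncoding *Cerox1*, and the strongest H3K4me3 there had its summit at -280 bp from the *Sox8* start site.

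H3K27me3 was listed at 5 of 8 members in the original experiment (*Sox1*, *Sox4*, *Sox10*, *Sox14* and *Sox21*) and at 6 of 8 in the rescue experiment (*Sox4*, *Sox8*, *Sox9*, *Sox11*, *Sox14* and *Sox21*). All 8 were in at least 1 of the lists and 3 were in both, beside shares of all genes of 40.1% in the original, 59.0% in the rescue, 63.8% in either and 35.3% in both. Among the 5081 genes with windows of the members' lengths (7065 to 14578 bp), these shares were lower, at 30.8%, 50.1%, 56.6% and 24.3%. Members with H3K4me3 and H3K27me3 in the original experiment were therefore also 5 of 8, beside 34.0% of all genes and 23.8% of those 5081. The members in both lists had regions of unlike width. *Sox14* lay in a region of 68.9 kb in the original and 143.6 kb in the rescue list, *Sox21* in 39.1 and 46.0 kb, and *Sox4* in 14.8 and 16.1 kb.

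The members in only 1 of the lists also had wide regions. *Sox1* lay in 58.0 kb of the original list, which ranked 27 of 41869 by strength, while the nearest rescue region was 42.5 kb from its window. *Sox10* lay in 28.1 kb of the original list, and the nearest rescue region was 11.6 kb from its window. In the rescue list *Sox9* lay in 131.2 kb, *Sox11* in 107.9 kb and *Sox8* in 33.8 kb, and the nearest original regions were 51.9, 33.6 and 41.6 kb away. The lists disagreed in this way over the genome: of 351 original regions of at least 50 kb, 96 (27.4%) had no overlapping rescue region, and of 3558 such rescue regions, 882 (24.8%) had no overlapping original region. A member's place in 1 list and not the other is therefore not read as a difference between the experiments. Of 843 genes with SUZ12 in all 3 lists and a WT fold enrichment of at least 50, 59 were in neither H3K27me3 list and 561 (66.5%) in both, and of the 3 such members, *Sox9* was in the rescue list alone and *Sox14* and *Sox21* in both.

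**Figure D5:**
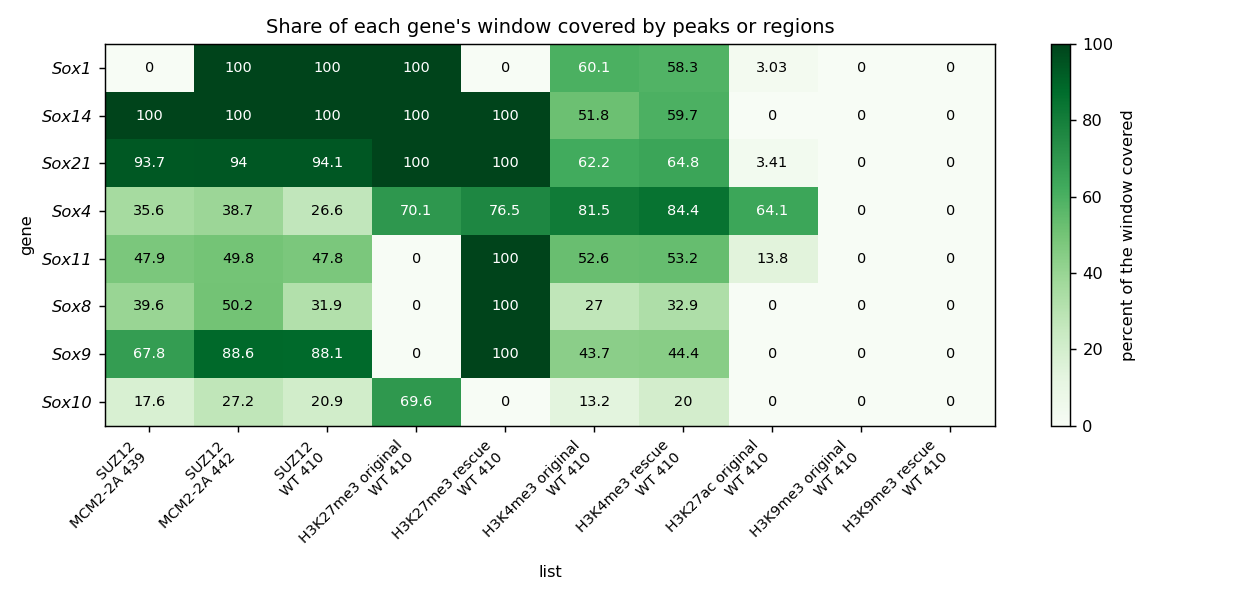
Percent of each member's window (rows) covered by peaks or regions of each list (columns), from 0 (white) to 100 (dark green), 1 value per list. H3K4me3 is alike in the original and rescue lists, H3K27me3 is 100 in one and 0 in the other at Sox1, Sox8, Sox9 and Sox11, and H3K9me3 is 0 throughout.

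H3K27ac differed between members, and only the SoxC genes had several peaks. The mark was listed at 4 of 8 members (*Sox1*, *Sox4*, *Sox11* and *Sox21*), beside 66.1% of all genes, and together with WT SUZ12 at the same 4, beside 15.6%. Since all 8 members had WT SUZ12, the closer background is the genes with WT SUZ12, of which 69.0% had H3K27ac, or 49.0% among those with windows of the members' lengths (7065 to 14578 bp), so the members were not above it. *Sox4* had 7 peaks and *Sox11* had 6, and 23.6% of all genes had at least 6, a share of 6.32% among the 5081 genes with windows of the members' lengths. *Sox4* peaks covered 64.1% of its window, and the strongest, with a fold enrichment of 14.4, lay at the far end of the gene with its summit 5222 bp after the start site. Its 4 peaks nearest the start site were between 4.33 and 4.83. *Sox11* peaks covered 13.8% of the window, and the strongest, 6.27, had its summit at -313 bp. *Sox1* had a single peak of 2.5 and *Sox21* a single peak of 3.56, both inside the gene. Both were below the median fold enrichment of the list, 3.98. They ranked 122313 and 78796 of 128247, with a -log10 q of 2.11 and 4.22.

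At *Sox4* the marks were arranged along the gene. The WT SUZ12 summit lay 1293 bp after the start site, H3K27me3 of the original list ran from -10441 to 4359 bp, and the strongest H3K27ac peak ran from 3681 to 6001 bp. Of that peak, 29.3% lay inside the original H3K27me3 region and 56.0% inside the rescue region, which ended at 4979 bp, so whether most of it lay beyond H3K27me3 turned with the list. Of the H3K27ac bases, 23.4% lay inside WT SUZ12, 55.5% inside H3K27me3 of the original and 65.3% inside that of the rescue list. At *Sox11* all 6 H3K27ac peaks lay inside WT SUZ12 and inside the rescue H3K27me3 region. Since the lists average over many cells, marks in the same place need not be on the same chromosomes. H3K27ac touched 65 bp of the printed *Sox4* promoter and 105 bp of the *Sox11* promoter. H3K27ac was not listed at *Sox8*, *Sox9*, *Sox10* or *Sox14*, and the nearest peaks were 6.03, 12, 5.54 and 149.1 kb from their windows.

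H3K9me3 was listed at 0 of 8 members in both experiments, beside 33.8% of all genes in the original and 58.7% in the rescue list. Long windows collect more regions, and among the 5081 genes with windows as long as those of the members the shares were 12.3% and 32.8%. The nearest region of either list was 0.943 kb from the window of *Sox9*, 2.79 kb from that of *Sox21* and 5.41 kb from that of *Sox4*.

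Of 12 other Sox genes, 8 had SUZ12 in each of the 3 lists, beside 21.3% of all genes, and 3 had neither SUZ12 nor H3K27me3 in any list. *Sox2*, which holds ESCs pluripotent and is the close relative of *Sox1*, had no SUZ12, 96.7% of its window under H3K27ac and 99.8% under H3K4me3. By WT fold enrichment the leading other Sox genes were *Sox6* (63.4 in clone 439 and 62.8 in clone 442, against 93.6 in WT), *Sox17* (83.9 and 30.8, against 75.8), *Sox7* (58.5 and 42.2, against 66.4) and *Sox3* (42.6 and 36.8, against 45.3). *Sox17*, the endoderm regulator, was above WT in clone 439 and below it in clone 442, and the 3 others were below WT in both. All were named for a high WT value, which favours values below WT. Where WT fold enrichment was over 38.7, as at each of them, 58.6% of genes were below WT in both clones and 11.9% above. Over the 8 other Sox genes with SUZ12 in every list, 3 were above WT in both clones and 3 below, beside 43.6% and 26.1% of the 4652 genes.

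Among regulators of the same lineages, SUZ12 was in all 3 lists at 12 of 12 neural progenitor regulators and at 13 of 16 neural crest regulators, beside 21.3% of all genes. *Olig2*, for motor neurons and oligodendrocytes, had a fold enrichment of 112.1 in clone 439 and 80.1 in clone 442, against 129.8 in WT. *Pou3f3* had 91.6 and 78.1, against 124.7, *Lhx2* 106.3 and 78.2, against 106.2, and *Nkx2-2* 87.9 and 83.1, against 99.9. In the neural crest list, *Zic1* had 77.1 and 56.7, against 116.9, *Pax3* 50.5 and 53.3, against 89.8, and *Msx1* 66.4 and 59.7, against 75.5. These genes were named for a high WT fold enrichment, which favours values below WT. Over the whole lists, 8 of 12 neural progenitor regulators were below WT in both MCM2-2A clones and 1 above in both, and of the 13 neural crest regulators with SUZ12 in every list, 5 were below and 3 above. Of the 4652 genes with SUZ12 in all 3 lists, 26.1% were below in both and 43.6% above. Where WT fold enrichment was over 38.7, as at most of these regulators, the shares were 58.6% and 11.9%. The counts over the whole lists are therefore not free of WT strength. *Pax7*, a crest and muscle regulator, had 93.0 in clone 439 and 44.8 in clone 442 and no peak in the WT list. *Pax7* and *Sox1* were thus both missing from 1 list while strong in the others. In the fibroblast list *Pdgfra* had 94.3 and 72.6, against 93.7, *Twist2* 50.7 and 58.9, against 69.2, *Thy1* 6.77 and 9.12, against 7.08, and *Col1a2* 7.56 and 5.73, against 6.66.

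The genes whose windows were covered most like a member's were found by the Euclidean distance over the 10 lists, in percentage points of the window, as a description with no p. *Sox14* was nearest to *Mnx1* (2.29), *Tbx2* (2.76) and *Hoxa6* (3.34), *Sox21* to *Helt* (8.69), *Hoxb8* (9.75) and *Gsc* (9.81), and *Sox9* to *Vax1* (15.9), *Hsf4* (16.4) and *Bsx* (16.9). *Sox8* was nearest to *Id4* (4.21), *Gpr12* (9.30) and *Adra2b* (13.4), *Sox10* to *Otop2* (14.7), *C130074G19Rik* (16.8) and *H2-Q7* (17.0), and *Sox11* to *Sowahb* (17.8), *Nkx6-3* (20.5) and *Prob1* (21). *Sox4*, nearest to *Phlda2* (44.5), *Ankrd34a* (46.5) and *Bhlhe40* (48.1), and *Sox1*, nearest to *Tfap2a* (80.2), *Slc18a3* (81.7) and *Dlx2* (85.5), had no near match in these lists. A gap in a list counts here as no coverage, as for *Sox1* in SUZ12 of clone 439 and in rescue H3K27me3. *Sox8*, *Sox9*, *Sox10* and *Sox11* likewise lack coverage in 1 of the H3K27me3 lists. Their distances thus rest on the completeness of the lists, which was not tested.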

How the data were processed

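The 10 lists used stood for 26 of 136 samples. Per the submitters' processing notes, BWA 0.7.15, cutadapt 2.5, MACS2 2.1.0, Picard 2.20.7 and the mm10 build were used, with roles not stated there. SUZ12 came from crosslinked, sonicated chromatin and the marks from native MNase-digested chromatin, with a Drosophila spike-in. The authors deposited for SUZ12, H3K4me3 and H3K27ac peaks a fold enrichment (a ratio), a -log10 q-value and a summit offset, SUZ12 lists being marked as filtered by irreproducible discovery rate. H3K27me3 and H3K9me3 regions were deposited with a strength score of unknown scale, used for ranks only, from a caller not given in the sources used here. Depth is unknown.

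Windows, covered bases and overlaps were computed in Python 3.11.15 with pandas 2.3.3, with RefSeq genes of GRCm38.p6, and the overlap code was tested on simulated data. No test was made. The 8 members and the gene lists were chosen with earlier results of these data known. Named were all members, up to 4 genes per other list by WT SUZ12 fold enrichment, genes whose SUZ12 differed between WT and both MCM2-2A lists, the 3 most similar genes per member, and genes sharing a window or peak. *Sox2* was named outside this rule, after its values were seen, and 1 gene the rule names is not reported here.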

Additional observations from a re-analysis of the deposited data

How the results depend on the processing

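No paired analysis was possible because the deposited lists combine the replicates of a clone, and for the same reason no replicate could be left out. Of 41 recounts of members, 38 stayed within 1.5 times the count reported. The others were H3K27ac, listed at 2 members (*Sox4* and *Sox11*) at a -log10 q of at least 10, SUZ12 extent, greater in both MCM2-2A clones at 1 member (*Sox4*) with a lower fold, and H3K4me3 with H3K27me3, at 8 members where H3K27me3 in either list counted, an alternative chosen after seeing the data. Of 30 recomputed ratios of single members to WT, 2 changed direction with -log10 q in place of fold enrichment: *Sox8* in clone 442 came to 1.23 and *Sox9* in clone 442 to 0.909. *Sox8* in clone 439 came to 0.997. The causes were not tested. With the rescue lists, the members with both H3K4me3 and H3K27me3 were 6 rather than 5, and 3 were in common. Read depth behind the lists is unknown, so a gene that is not listed may be below the threshold, and whether the lists are complete was not tested.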
